A study of Mus musculus with 6 samples.

Results

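Genes of 6 secreted matrix glycoproteins were followed in fibrotic mouse liver: the thrombospondin genes Thbs1 and Thbs2, Postn (periostin), Sparc (osteonectin), Tnc (tenascin C) and Fn1 (fibronectin). They were chosen by gene symbol, with earlier results of these data known, and 6 of 6 were found among the 21983 symbols of the count table. All 6 also passed the filter on low counts, which kept 13153 genes. RNA came from whole liver of C57BL/6 mice labelled 10 weeks old, every one of which had drunk thioacetamide (TAA), a hepatotoxin that scars the liver, at 400 mg/L for 16 weeks. Of these mice, 3 carried Lrat-Cre together with Prmt1f/f, floxed alleles of the arginine methyltransferase gene Prmt1, and are called knockout mice (numbers 49, 82 and 88). The other 3 were Prmt1f/f without Cre and are called control mice (42, 83 and 90). Lrat is expressed in hepatic stellate cells, so a Lrat-Cre is meant to act there, and RNA of whole liver comes mostly from other cells. The labels do not say whether 10 weeks is the age before or after TAA. There was no group without TAA, and sex is not given.

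Matricellular proteins are secreted into the matrix but act mainly by signalling to cells, through integrins, CD36, CD47 and syndecans, and by altering how other matrix proteins assemble. Thrombospondin 1 can release active TGF-beta from its latent complex, whereas thrombospondin 2 lacks the sequence that does so. Periostin, tenascin C and SPARC are made in quantity by myofibroblasts, the cells that stellate cells become in injured liver. Fibronectin has a double origin, because hepatocytes secrete plasma fibronectin into blood and stellate and endothelial cells deposit the cellular form in tissue. A gene-level count adds both forms together.

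Promoter sequence is shown for 3 of the genes, Postn and Tnc because both were lower in knockout livers and Thbs2 because it was not. The windows are the 250 bases before a RefSeq start (GRCm38.p6, the assembly of mm10), 5′ to 3′ on the strand of the gene, and none overlaps an exon of GENCODE M21. Capitals mark every match, on either strand, to the SMAD motif CAGAC, the AP-1 motif TGANTCA, the TEAD motif CATTCC, the SP/KLF motif GGGCGG, the TATA box motif TATAAA or the NF-Y motif CCAAT, and no match overlaps another in these windows.
Postn, chr3:54360857-54361106, plus strand: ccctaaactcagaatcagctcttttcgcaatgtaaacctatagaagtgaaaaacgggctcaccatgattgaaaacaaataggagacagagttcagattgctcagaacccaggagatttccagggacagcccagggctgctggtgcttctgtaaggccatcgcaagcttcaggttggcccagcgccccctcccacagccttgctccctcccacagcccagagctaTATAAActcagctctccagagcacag
Tnc, chr4:64047016-64047265, minus strand: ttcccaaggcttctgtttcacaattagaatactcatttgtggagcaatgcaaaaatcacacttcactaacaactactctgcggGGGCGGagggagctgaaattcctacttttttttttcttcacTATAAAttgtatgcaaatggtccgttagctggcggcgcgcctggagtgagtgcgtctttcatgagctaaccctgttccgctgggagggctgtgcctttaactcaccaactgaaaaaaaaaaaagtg
Thbs2, chr17:14694263-14694512, minus strand: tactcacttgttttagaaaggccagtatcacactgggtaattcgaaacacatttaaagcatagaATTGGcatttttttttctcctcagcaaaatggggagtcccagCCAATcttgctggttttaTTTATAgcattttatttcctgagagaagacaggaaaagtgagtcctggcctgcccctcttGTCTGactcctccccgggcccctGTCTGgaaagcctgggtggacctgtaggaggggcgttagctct
All 3 windows hold TATAAA, which 12.4% of the 32851 RefSeq promoter windows of this length hold. It begins 26 bases before the start in Postn and 126 bases before it in both Tnc and Thbs2. The Thbs2 window also holds CAGAC 2 times and CCAAT 2 times, motifs that 42.2% and 33.8% of all windows hold, and the Tnc window holds GGGCGG, which 32.7% hold. TGANTCA (6.75% of all windows) and CATTCC (12.6%) are in none of the 3. Postn and Tnc each have another start in RefSeq whose window is not shown, and each of those windows holds CAGAC 1 time. For Sparc, 238 of the 250 bases before its RefSeq start are exonic in M21, and its window, not shown either, also holds CAGAC 1 time. CAGAC was thus in at least 1 window of 4 of 4 matched members, whichever way their levels went. For Postn and Tnc it was not in the window shown. The 42.2% is a share of single windows, so it is no background for a count of genes with more than 1 window. Thbs1 and Fn1 were not matched. These matches are letters in a window and say nothing of binding.

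In knockout livers Thbs1, Postn, Tnc and Sparc were lower, Thbs2 was not, and Fn1 was higher on average with overlapping groups. The fitted log2 fold changes of knockout over control were -1.58 for Thbs1, -1.56 for Postn, -1.15 for Tnc, -1.09 for Sparc, -0.06 for Thbs2 and 0.42 for Fn1. In 4 of the 6 genes every knockout mouse lay under every control mouse, an arrangement seen in that direction in 7.95% of the 13153 genes tested; the reverse, seen in 8.94% of all genes, held for 0 of the 6. After Benjamini-Hochberg adjustment over all genes, 0 of the 6 passed 0.05 in edgeR's quasi-likelihood test, and the background was 0% of all genes. At an unadjusted p under 0.05 the same 4 genes were lower, against 5.95% of all genes, and 0 were higher, against 5.06%. DESeq2 called 3 of the 6 lower (Thbs1, Sparc and Postn), against 0.936% of the genes it tested, and 0 higher, against 0.875%; limma-voom called 0. The median log2 fold change of all genes tested was -0.02. Since the 6 genes were chosen with earlier results of these data known, their counts beside these shares are a description and not a test. In whole tissue, fewer cells of a type and less RNA per cell cannot be told apart.

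**Figure D1:**
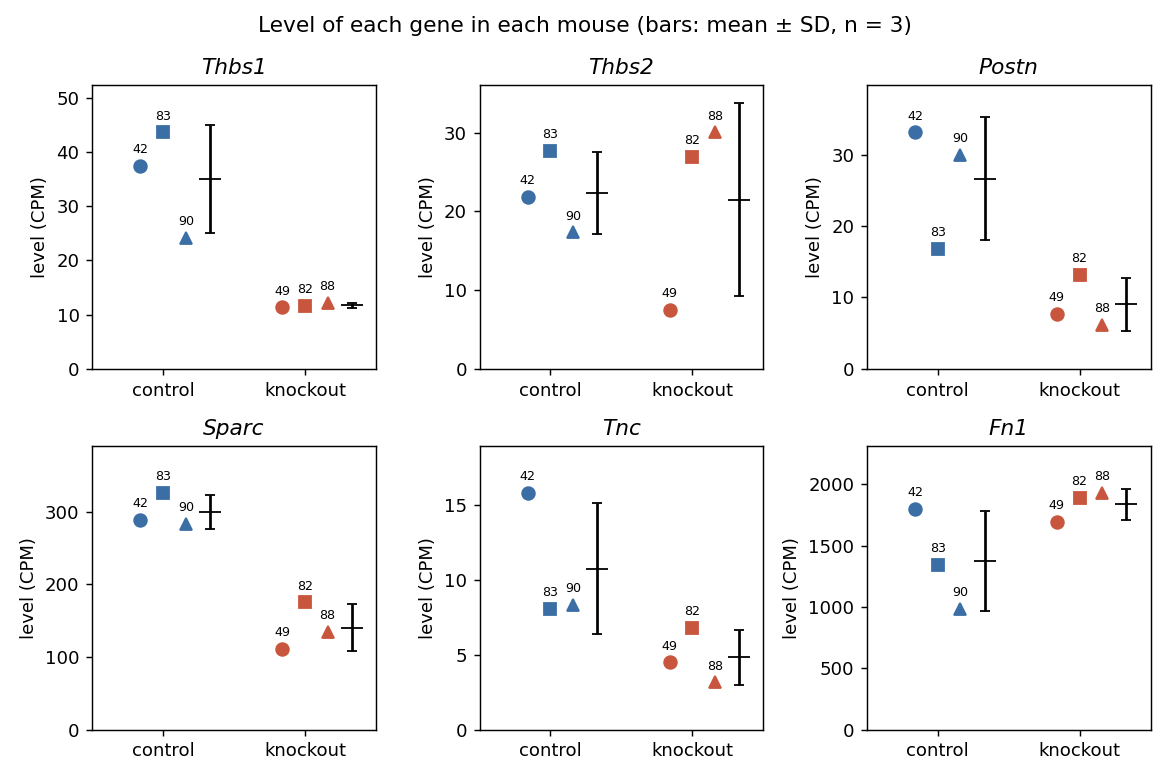
Level of each gene in each mouse, in CPM (counts scaled to a common library size by TMM), with mouse numbers beside the points and the mean ± SD (n = 3) to the right of each group; every axis starts at 0. The knockout points of Thbs1, Postn, Sparc and Tnc all sit under the control points, those of Thbs2 split between mouse 49 and the other two, and those of Fn1 lie within and above the control range.

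The libraries held between 13303884 and 16462278 counts, and no 2 of them agreed within sampling noise (chi-square per degree of freedom between 16.3 and 105.2). The closest pair was knockout mice 82 and 88 (16.3), and the next was control mouse 42 with knockout mouse 49 (28.4). Mouse 42 was at 48.5 and 96.5 from control mice 83 and 90, and mouse 49 at 61.8 and 65.6 from knockout mice 82 and 88. The libraries thus did not group by genotype alone, and the cause was not tested. Prmt1 itself was at 38.9, 44.4 and 49.8 CPM in control mice 42, 83 and 90 and at 35.8, 24.7 and 25.8 CPM in knockout mice 49, 82 and 88, with groups apart. Its log2 fold change was -0.62 (SE 0.20, adjusted p 0.347 in edgeR). Mouse 49 thus had the smallest reduction, and Lrat itself was at 26.1 to 50.8 CPM in knockout and 67.3 to 100.2 CPM in control livers. The library of control mouse 90 differed from the others by gene length. In that mouse genes with under 2 kb of exon had a median 0.49 log2 above their mean over the 6 mice, and genes of 8 kb and over a median of -0.31. The other 5 mice ranged from -0.14 to -0.05 for short genes and from 0.02 to 0.11 for long ones.

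**Figure D2:**
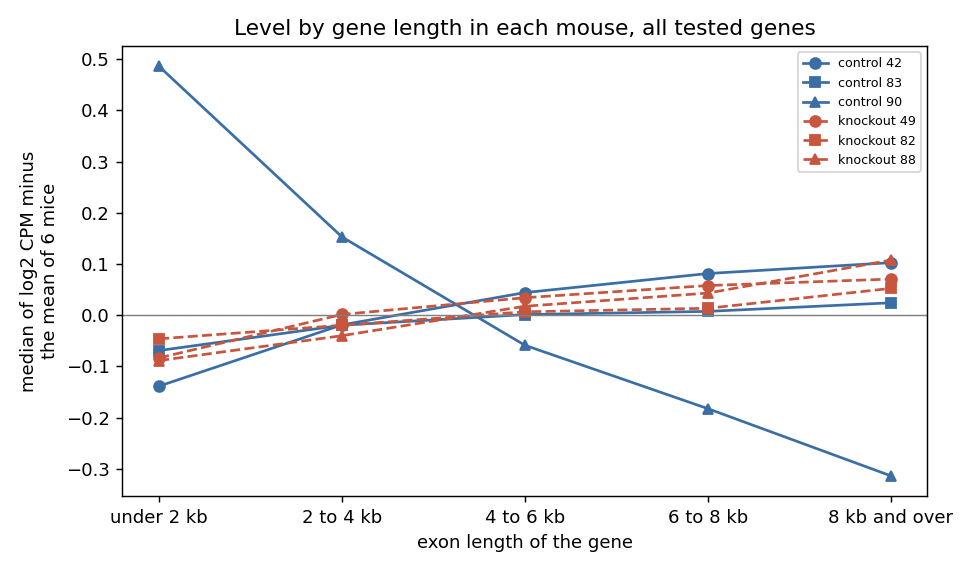
Median over tested genes of log2 CPM minus the gene's own mean over the 6 mice (vertical axis), by exon length of the gene (horizontal axis), with 1 line per mouse. Control mouse 90 falls from 0.49 in the shortest genes to -0.31 in the longest, while the other 5 lines stay between -0.14 and 0.11.

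Compared per kilobase of exon (all isoforms of M21 joined), Fn1 and Sparc were far more abundant than the other 4 genes. In control livers the means were 117.9 ± 35.0 CPM per kb for Fn1, 79.0 ± 6.09 for Sparc, 5.77 ± 1.64 for Thbs1, 3.19 ± 0.741 for Thbs2, 3.06 ± 0.995 for Postn and 1.38 ± 0.564 for Tnc (SD, n = 3). Compared within each mouse, this order held in 3 of 3 control mice for every pair of neighbours except Thbs2 and Postn, of which Thbs2 was the higher in mouse 83 alone. Across mice the ranges overlapped between Fn1 and Sparc, between Thbs2 and Postn, and between Postn and Tnc. Thbs1 exceeded Thbs2 in each control mouse, with 6.16 against 3.12, 7.18 against 3.96 and 3.97 against 2.48 CPM per kb in mice 42, 83 and 90. In knockout livers Thbs2 (3.07 ± 1.75 CPM per kb) had a higher mean than Thbs1 (1.93 ± 0.0709), with overlap because mouse 49 was at 1.07 for Thbs2, below its own Thbs1. Fn1 (157.3 ± 10.8) and Sparc (37.1 ± 8.53) were then far apart, and the ranges of Postn (1.04 ± 0.422) and Tnc (0.622 ± 0.238) again overlapped, with Postn the higher in 3 of 3 knockout mice.

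Thbs1, the thrombospondin of platelets and of wounds, lies at chr2:118111876-118127133 (plus strand, mm10) with 6073 bases of exon. It was at 37.4, 43.6 and 24.1 CPM in control mice 42, 83 and 90 and at 11.3, 11.6 and 12.2 CPM in knockout mice 49, 82 and 88. The knockout mice were nearly identical to each other (CV 3.68%), and the lowest control mouse, 90, was still well above them. The knockout values rest on 176, 155 and 169 counts. At such counts, counting error alone is expected to exceed that CV, so the close agreement does not show how little these mice vary. The means were 35.0 ± 9.95 and 11.7 ± 0.431 CPM (SD, n = 3), which put knockout livers at 33.4% of control. The log2 fold change had an SE of 0.24 and a 95% interval from -2.12 to -1.04, and its p ranked 7 of 13153 genes. The adjusted p was 0.17 in edgeR and 1.46e-05 in DESeq2. Thbs1 shares 208 bases of exon, 3.42% of its length, with a lincRNA on the opposite strand, and the strand setting of the counting is not known.

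Thbs2, which binds matrix metalloproteinases and restrains vessel growth, lies at chr17:14665500-14694235 (minus strand). Control mice 42, 83 and 90 had 21.9, 27.7 and 17.3 CPM, and knockout mice 49, 82 and 88 had 7.47, 26.9 and 30.0 CPM. Mouse 49 was the lowest of the 6 and mouse 88 the highest, so the knockout group spanned a 4.02-fold range, wider than in control. The means were 22.3 ± 5.19 and 21.5 ± 12.2 CPM. The 95% interval of the log2 fold change ran from -1.06 to 0.95 (SE 0.44, adjusted p 0.968 in edgeR), which leaves room for changes near 2-fold either way. Without mouse 49 the value was 0.35 and without control mouse 83 it was 0.13, so its sign is not settled by these mice.

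Both thrombospondins bind CD36 and CD47, yet their ratio differed between knockout mice. Thbs1 counts were 1.71, 1.57 and 1.39 times those of Thbs2 in control mice 42, 83 and 90 and 1.52 times in knockout mouse 49. In knockout mice 82 and 88 the ratio was 0.432 and 0.405. Mouse 49 kept the control proportion at a low level of both genes, while in the other 2 knockout mice only Thbs1 was low. This ratio was looked at after the values were seen and carries no test.

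Postn, a fasciclin-domain protein that links collagen fibres and binds integrins, lies at chr3:54361109-54391037 (plus strand). Its levels were 33.1, 16.8 and 30.0 CPM in control mice 42, 83 and 90 and 7.73, 13.2 and 6.20 CPM in knockout mice 49, 82 and 88. Control mouse 83 and knockout mouse 82 were the closest pair across the groups, which did not overlap. Means were 26.7 ± 8.66 and 9.04 ± 3.68 CPM, or 33.9% of control. The log2 fold change of -1.56 had an SE of 0.35 and a 95% interval from -2.35 to -0.77, and edgeR and DESeq2 gave adjusted p of 0.256 and 0.00508. The highest control level of Postn came in mouse 42, whereas for Thbs1 it came in mouse 83.

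Sparc, a collagen-binding glycoprotein secreted during matrix assembly, lies at chr11:55394500-55423183 (minus strand). Control mice 42, 83 and 90 had 289, 326 and 283 CPM and knockout mice 49, 82 and 88 had 112, 175 and 135 CPM. Control mice agreed within 1.15-fold, the tightest control group of the 6 genes, and the highest knockout mouse lay far below them. The means were 299 ± 23.1 and 141 ± 32.3 CPM, which is 47.0% of control. The SE of the log2 fold change was 0.22, the 95% interval ran from -1.59 to -0.59, and adjusted p was 0.227 in edgeR and 8.49e-04 in DESeq2. Sparc rests on at least 1734 counts per mouse, so counting error is a small part of this spread.

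Tnc, a hexameric glycoprotein that appears in healing tissue and signals through integrins and TLR4, lies at chr4:63959785-64047015 (minus strand). It had the fewest counts of the 6 genes, 237, 159 and 102 in control mice 42, 83 and 90 and 70, 91 and 44 in knockout mice 49, 82 and 88. In CPM these were 15.8, 8.08 and 8.34 in control and 4.51, 6.82 and 3.17 in knockout livers. Mouse 42 stood above the other control mice, and the lowest control mouse exceeded the highest knockout mouse by little. The log2 fold change of -1.15 (SE 0.38, 95% interval from -2.01 to -0.29) went with adjusted p of 0.347 (edgeR) and 0.119 (DESeq2). Without mouse 42 it was -0.76, and with the 4 mice numbered over 80 alone -0.71.

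Fn1, the scaffold on which collagen fibres are laid down, lies at chr1:71585520-71653200 (minus strand) and has 11685 bases of exon. Levels were 1803, 1343 and 987 CPM in control mice 42, 83 and 90 and 1695, 1890.3 and 1930.2 CPM in knockout mice 49, 82 and 88. Control mouse 42 sat inside the knockout range, and mouse 90, whose library was poor in long genes, was the lowest. Means were 1378 ± 409 and 1838 ± 126 CPM, 133% of control. The log2 fold change of 0.42 (SE 0.28, 95% interval from -0.22 to 1.05) went with an adjusted p of 0.597 (edgeR). It was 0.19 without mouse 90 and 0.66 without mouse 42.

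Because gene length moved with mouse 90, the 6 genes were also centred on tested genes of like exon length. On that scale, a difference of mean log2 CPM, Fn1 went from 0.46 to 0.32, Postn from -1.56 to -1.70, Thbs1 from -1.53 to -1.60, Tnc from -1.13 to -1.20, Sparc from -1.11 to -1.06 and Thbs2 from -0.26 to -0.33. No sign turned. Among all tested genes of 8 kb and over, 12.4% had every knockout mouse above every control mouse, against 3.09% of genes under 2 kb. The reverse held for 4.49% of the long and 10.2% of the short genes. Fn1, whose groups overlapped, and Postn, whose groups were apart and lower, both belong to the long group. The part of gene length in their differences was not tested.

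**Figure D3:**
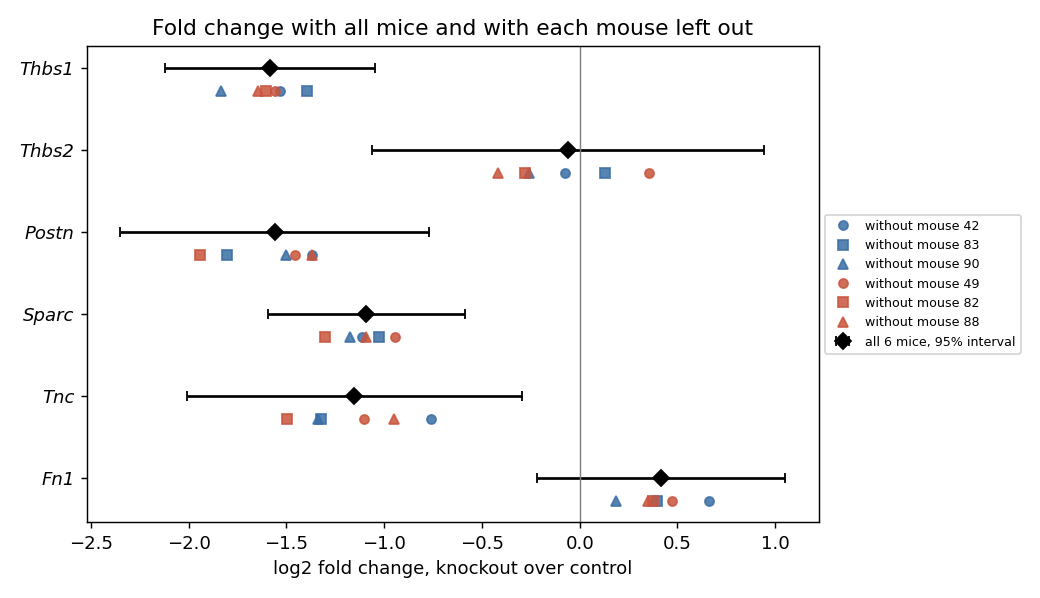
Log2 fold change of knockout over control for each gene: black diamonds and bars give the edgeR value with all 6 mice and its 95% interval, and coloured points the value with 1 mouse left out. The points of Thbs1, Postn, Sparc and Tnc all stay below 0, those of Fn1 above it, and those of Thbs2 run from -0.42 to 0.35.

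The difference between Fn1 and the other genes was tested within each mouse, as the log2 ratio of each gene to Fn1. For Thbs1 the ratio was -5.59, -4.94 and -5.35 in control mice 42, 83 and 90 and -7.22, -7.34 and -7.30 in knockout mice 49, 82 and 88, a difference of means of -1.99. Postn (-2.03), Tnc (-1.60) and Sparc (-1.57) also had lower ratios in every knockout mouse than in any control mouse. A two-sided exact permutation test gave p 0.1 for each of these 4, and 0.125 after adjustment over the 5 ratios. With 20 ways to assign the mice, 0.1 is the lowest p possible. Thbs2 to Fn1 differed by -0.72 with overlapping groups (two-sided exact permutation p 0.4), and by -0.14 without mouse 49.

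Each gene was also set against 15 stellate identity genes, of which 14 were tested, since their mean was also below control in knockout livers. Of the 14, edgeR called 0, 4 had every knockout mouse under every control mouse (7.95% of all genes did), and the others overlapped, Pdgfrb being at 0.03. The mean log2 CPM of the list in knockout mice 49, 82 and 88 was -1.08, -0.35 and -0.30 from the control mean, and the control mice lay between -0.15 and 0.12. Relative to that mean, Sparc (difference -0.54) and Postn (-0.99) were lower in every knockout mouse than in any control mouse, and Fn1 (1.03) was higher in every one. By the same exact permutation test, p was 0.1 for each of these 3 and 0.2 after adjustment over the 6 genes. Thbs1 (-0.96, p 0.2 by the same exact test) overlapped because control mouse 90 lay at -0.50 and knockout mouse 49 at -0.39. Tnc (-0.57) and Thbs2 (0.31) overlapped too, with exact permutation p of 0.5 and 0.6. These values moved with the mice and the reference used. Without mouse 88 Postn was at -0.62 and Tnc at -0.16, without mouse 42 Tnc was at -0.27, and Thbs2 ran from 0.086 without mouse 90 to 0.70 without mouse 49. Against Lrat alone, the gene of the stellate retinol esterifying enzyme, Sparc (-0.0057) and Tnc (-0.037) were near 0, with exact permutation p of 1 for each. On that reference Postn was at -0.47 (exact permutation p 0.5), Thbs1 at -0.43 (0.3), Thbs2 at 0.84 (0.1) and Fn1 at 1.56 (0.1).

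**Figure D4:**
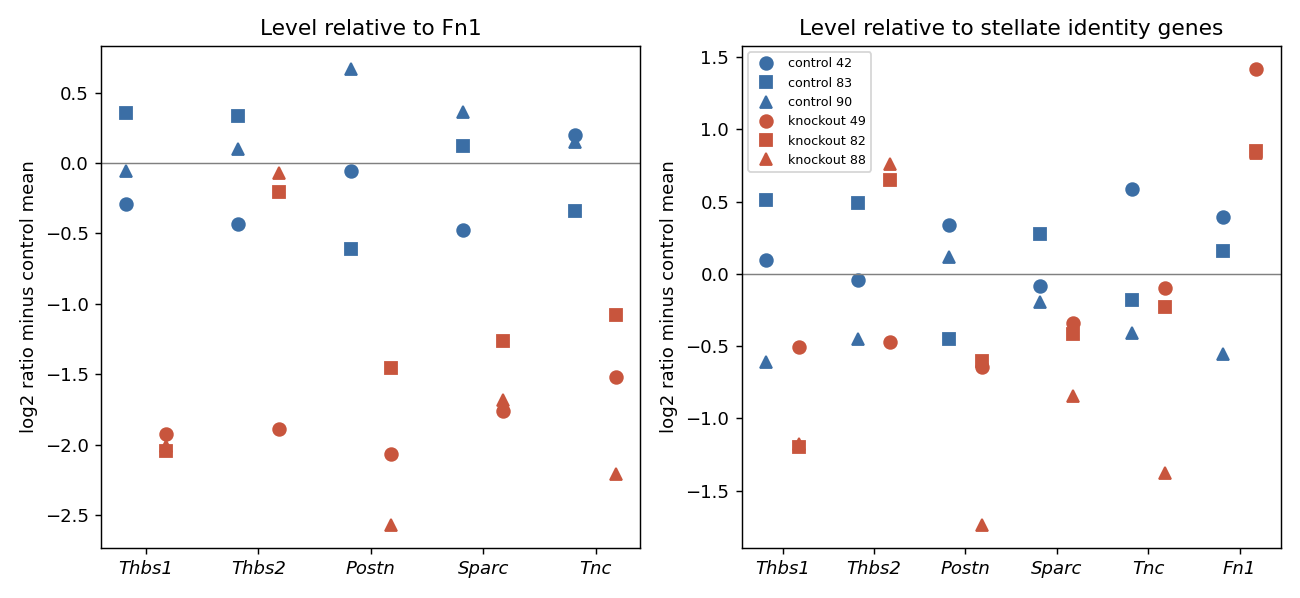
Log2 ratio of each gene to Fn1 (left) and to the mean of stellate identity genes (right), minus the control mean, 1 point per mouse (blue control, red knockout). Relative to Fn1 the knockout points of Thbs1, Postn, Sparc and Tnc lie below all control points; relative to stellate identity genes this holds for Postn and Sparc.

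Genes of the families of the 6 genes, and of the CCN family, did not all follow them. Of 14 tested, edgeR called 0 after adjustment, and 5 were lower and 2 higher at an unadjusted p under 0.05, against 5.95% and 5.06% of all genes. The CCN family, which holds 0 of the 6 genes, gave 5 of the 14 and 3 of the 5 lower ones. DESeq2 called 1 of the 14, Fstl1, lower as were 0.936% of all genes, and limma-voom 0. In the thrombospondin family Thbs3 was at 3.38 ± 1.11 against 2.87 ± 0.647 CPM (log2 fold change -0.25), and Thbs4 (40 counts in all mice) and Comp (9) were too low to test. In the SPARC family Fstl1, a secreted follistatin-like protein, had 60.7 ± 14.3 against 24.6 ± 8.70 CPM (-1.31, SE 0.30), with groups apart. Smoc1 went the other way, with 92.7, 84.5 and 96.8 CPM in control mice 42, 83 and 90 and 118.7, 119.8 and 115.7 in knockout mice 49, 82 and 88 (0.37, SE 0.16). Sparcl1 (-0.89) and Smoc2 (-0.41) overlapped, and Spock1, Spock2 and Spock3 were too low to test. Smoc1 was tight in both groups, so its smaller difference still kept them apart.

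Tnxb, the tenascin of connective tissue, differed from Tnc in sign, with 48.5, 39.5 and 29.1 CPM in control and 36.0, 79.8 and 113.5 CPM in knockout mice 49, 82 and 88 (log2 fold change 0.97, SE 0.38). Its groups overlapped through mouse 49, and Tnr and Tnn were too low to test. Among fasciclin-domain genes Tgfbi, a TGF-beta-induced matrix protein, was at 109 ± 24.1 against 65.9 ± 15.4 CPM (-0.73, SE 0.24) with groups apart. The scavenger receptors Stab1 (-0.25) and Stab2 (0.23) of sinusoidal endothelium overlapped. The CCN genes, listed under older symbols, had 5 of 5 tested members with negative values and a median of -0.81: Cyr61 (-0.81), Ctgf (-0.22), Nov (-0.03), Wisp1 (-0.94) and Wisp2 (-1.71). Only Wisp1 had groups apart, and Wisp3 was too low to test.

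Of 14 other matrix glycoproteins tested, 11 had negative values, with a median log2 fold change of -0.38 and a range from -2.04 to 0.28. In edgeR 0 passed after adjustment and 4 had an unadjusted p under 0.05, all lower (5.95% of all genes), while DESeq2 called 1, Igfbp7 (0.936% of all genes were called lower). Igfbp7, an insulin-like growth factor binding protein of vessels, had 395 ± 132 against 96.3 ± 23.4 CPM (-2.04, SE 0.31). Mfap4 (-1.44) and Efemp1 (-1.28), both of elastic fibres, followed, and also had groups apart. The receptor list held 21 tested genes with a median of -0.11, 0 called by edgeR or DESeq2 and 2 with an unadjusted p under 0.05 in edgeR, 1 in each direction, near the 5.95% and 5.06% of all genes. In 2 of the 21 the groups were apart, both higher in knockout livers, near the 8.94% of all genes; these were Egfr and the syndecan Sdc4 (0.49), named after its value was seen. Itgb6, the epithelial integrin subunit that frees TGF-beta, was at -1.17, the endocytic receptor Lrp1 at 0.81 and Egfr at 0.74. The Lrp1 level was lowest in mouse 90, at 467 CPM against 877 CPM or more in the other mice, as was seen for Fn1.

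Among 21 tested genes that process, cross-link or partner these proteins, 14 had negative values with a median of -0.51. By edgeR 0 passed and 7 had an unadjusted p under 0.05, all lower (5.95% of all genes); DESeq2 called 2, Lox and Col3a1 (0.936% of all genes). Lox, which cross-links collagen, was at -3.06 (SE 0.42), Col3a1 at -1.58 (SE 0.33) and Col1a1 at -1.10 (SE 0.33). Lox was near the floor in knockout livers, with 15, 6 and 14 counts in mice 49, 82 and 88. Control mice 42, 83 and 90 had 126, 146 and 56 counts. TGF-beta ligands and response genes, a list that includes Postn, were negative in 15 of 15 tested, with a median of -0.73. In 11 of the 15 the groups were apart, against 7.95% of all genes, and edgeR called 0, with 9 at an unadjusted p under 0.05 (5.95% of all genes), and DESeq2 3 (Postn, Acta2 and Ltbp2; 0.936% of all genes). Acta2, the actin of myofibroblasts, was at -1.29 (SE 0.29), Pmepa1, a TGF-beta feedback gene, at -0.92 (SE 0.25) and Ltbp2 at -1.60 (SE 0.48). Postn, Tgfbi, Tgfb1, Ctgf and Col1a1 stand in more than one of these lists. The lists too were chosen with earlier results of these data known, so their counts are descriptions.

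**Figure D5:**
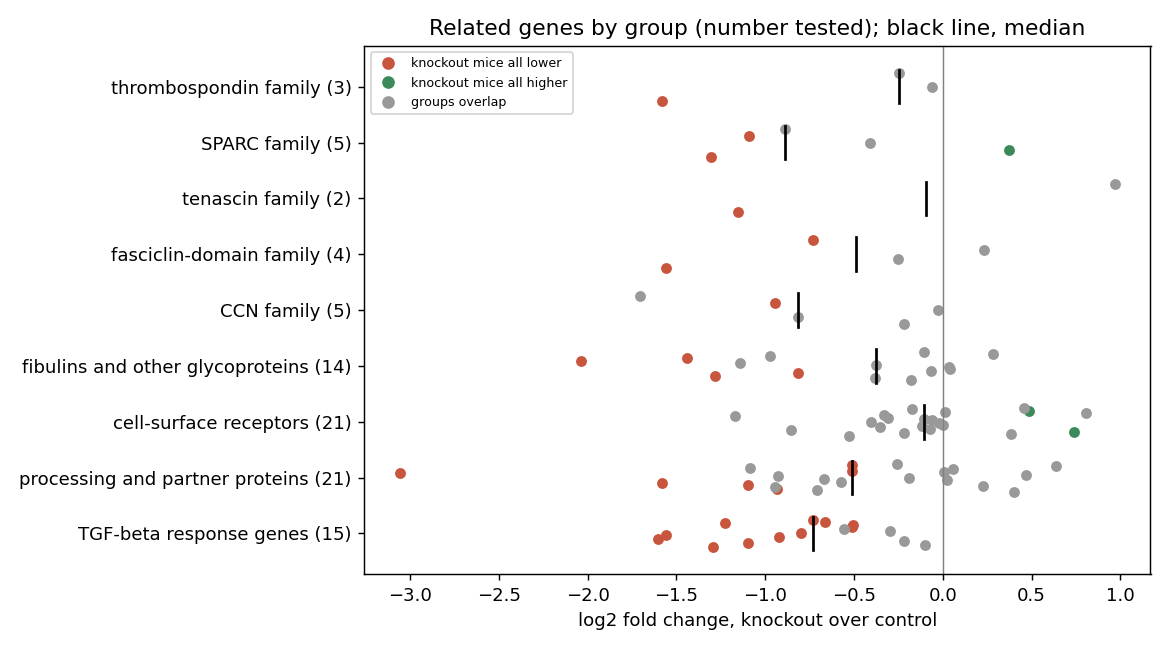
Log2 fold change of knockout over control of every tested gene in each related group, with the number tested in brackets and a black line at the median. Thbs1, Thbs2, Postn, Sparc and Tnc are included, whereas Fn1 (0.42) stands in none of the groups and is not drawn. Vertical scatter within a group only separates points. Red points are genes with every knockout mouse below every control mouse, green the reverse; the TGF-beta response genes lie wholly left of 0 and the receptors on both sides of it.

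The genes with the nearest profiles over the 6 mice were found for each member by the root mean square difference of centred log2 CPM, among 12479 genes. Fn1 had the closest neighbours, Fzd7, Dpp8 and Ubr3, at 0.024, 0.030 and 0.037 log2. Fn1 and these neighbours were all lowest in control mouse 90 (centred log2 CPM from -0.68 to -0.62), whose library was poor in long genes. The part of that library in the match was not tested. Thbs2 ran with Col6a1 (0.091), Syngr1 (0.15) and Ephb6 (0.15), all low in mouse 49. Sparc was nearest to Loxl2 (0.084), a collagen cross-linker, C1qtnf6 (0.11) and Mcm6 (0.16). Thbs1 was nearest to Col16a1 (0.18), Dzip1 (0.19) and Ska3 (0.23), and Tnc to Vcan (0.23), the provisional-matrix proteoglycan versican, Col9a3 (0.27) and Tnfaip8l1 (0.28). Postn had no close neighbour, its nearest being Aard, Rnf227 and Tbx1 at 0.34, 0.35 and 0.36. With 6 mice many genes can share a profile, and these are descriptions without a test.

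Markers of the cells that can make these proteins were measured in the same libraries, and their part in the results was not tested. Summed over the stellate identity list, levels were 747 to 987 CPM in control and 338 to 754 CPM in knockout livers, with 13 of 14 tested genes negative, Dcn (-0.56) being the most abundant. Portal fibroblast genes summed to 359.6 to 491 against 191 to 371 CPM (6 of 9 negative; Gas6 -0.23, Eln -1.93), with Mfap5 at 1 count in all. Vascular smooth muscle genes summed to 121 to 161 against 70.6 to 105 CPM (6 of 7 negative; Rgs5 -0.88, Tagln -1.04). Mesothelial genes summed to 29.9 to 61.2 against 14.6 to 39.3 CPM (4 of 5 negative; Krt19 -0.75, Gpm6a -0.66). Krt19 gave most of that sum and is a bile duct gene too, standing in both lists. These 4 lists were lowest in mouse 49, and so were the platelet, neutrophil and bile duct lists given below. Mouse 49 was also lowest for Thbs2, for Sparc and, by little, for Thbs1. Postn and Tnc were lowest in mouse 88 and Fn1 in mouse 90.

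Platelets carry thrombospondin 1, and their genes were near the floor of the libraries. Of 12 platelet and megakaryocyte genes 4 could be tested and 3 of those were negative, Gp1bb and Treml1 had 0 counts in every mouse, and the list summed to 15.1 to 30.1 CPM in control and 14.2 to 18.4 CPM in knockout livers, mostly Clec1b (-0.52) and Itga2b (-0.29). The highest sum, 30.1 CPM, was that of control mouse 90, where Clec1b was at 20.4 CPM, against 5.87 and 5.29 CPM in control mice 42 and 83. The one of the 4 tested genes with groups apart was Gp1ba, named after its value was seen, which was higher in knockout livers (1.66, unadjusted p 0.00851 and adjusted p 0.323 in edgeR) at 0.400 to 2.77 CPM. Endothelial genes (539 to 777 against 509 to 675 CPM; 7 of 12 negative; Eng -0.06, Clec4g -0.16) and macrophage genes (442 to 1140 against 565 to 753 CPM; 5 of 11 negative; Lyz2 -0.93, Csf1r -0.33) overlapped, Trem2 being at 0 counts. The macrophage list had a median of 0.13, and its highest value was that of Marco (1.47), also named after its value was seen. Neutrophil genes summed to 19.1 to 84.7 against 11.8 to 18.1 CPM (6 of 6 negative; Csf3r -1.01, S100a8 -2.43). Bile duct genes summed to 556 to 1355 against 308 to 780.3 CPM (8 of 9 negative; Spp1 -0.97, Epcam -0.65). Hepatocyte genes, whose cells secrete plasma fibronectin, summed to 76012 to 115305 against 94557 to 113706 CPM with 2 of 12 negative. Alb, which gave most of that sum, was at 0.10 and Apob at 0.53. The hepatocyte list had a median of 0.42, and edgeR called 0 of it. In 4 of the 12 every knockout mouse lay above every control mouse, against 8.94% of all genes.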

How the data were processed

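Whole-liver RNA of 6 mice was sequenced; per the labels' protocols, TRIzol was used and 3 μg of RNA per sample went into NEBNext Ultra libraries. The authors deposited raw counts per gene symbol; the submitters' processing notes name Trimmomatic, FastQC, STAR, HTSeq and mm10 but no version. Neither annotation nor strand setting is given in the sources used here. The table had 0 repeated symbols and 5067 genes without a count.

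Columns were matched to mice by mouse number. The labels describe separate mice, and no number is shared between genotypes. Counts were filtered with filterByExpr, scaled by TMM (factors 0.909 to 1.20) and tested with the quasi-likelihood test of edgeR 4.0.16 (R 4.3.3), genotype as the only term, with Benjamini-Hochberg adjustment over 13153 genes. DESeq2 1.42.0 and limma-voom (limma 3.58.1) were alternatives. CPM are counts over TMM-scaled library sizes; ratios use log2 CPM with a prior count of 0.5. Intervals of 95% use 8.75 residual degrees of freedom. The fit was tested on simulated data. Gene positions and exon lengths come from GENCODE M21 (GRCm38), matching 13100 tested genes once; the length check uses log2 of CPM plus 0.1.

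The members, gene lists and marker lists were chosen with earlier results of these data known. All 6 members were named whatever their p, with the 3 smallest p of each list, all family relatives, the 3 nearest profiles per member and the 2 most abundant markers per list. One of the genes these rules take is not reported here. The Thbs1 to Thbs2 ratio, Sdc4, Gp1ba, Marco, Pdgfrb and the length check were chosen after values were seen.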

Additional observations from a re-analysis of the deposited data

How the results depend on the processing

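Over every alternative run, Thbs1, Postn, Sparc and Tnc kept a negative and Fn1 a positive log2 fold change, and the ratios to Fn1 and to stellate identity genes kept their signs, though Sparc and Tnc came to -0.0057 and -0.037 against Lrat alone. DESeq2 gave adjusted p under 0.05 for Thbs1 (-1.59), Postn (-1.56) and Sparc (-1.09), so 3 members were called, with 6 other listed genes and 123 lower and 115 higher genes in all; the cause of the difference from edgeR was not tested. Thbs2 turned positive with the 4 mice numbered over 80 (0.34) and ranged from -0.42 to 0.35 with each mouse left out. Genes called lower numbered 4 without a low-count filter and 3 at an adjusted p of 0.10. They numbered 6 (1 of them listed, Igfbp7) with a term that set mice 42 and 49 apart from the 4 mice numbered over 80. With each mouse left out, 0 to 4 were called lower and 0 to 9 higher, the highest counts without mouse 49. With each mouse left out, list medians moved most for the SPARC (-1.18 to -0.18), CCN (-1.16 to -0.66), tenascin (-0.29 to 0.20) and thrombospondin (-0.53 to -0.054) families; the sign turned for the tenascins (also 0.39 with the 4 mice numbered over 80) and the receptors (-0.23 to 0.032). Scaling by total counts alone put the median of all genes at -0.17 and gave 1302 lower and 288 higher genes at an unadjusted p under 0.05, against 782 and 666; on that scale Fn1 was at 0.25 and Thbs1 at -1.77. No paired analysis was possible because the mouse numbers are not shared between genotypes. Precision was limited by 3 mice per group. Tnc had the fewest counts, 44 to 237 per mouse, and CVs of 40.8% among control mice and 38.2% among knockout mice.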
